A study of Homo sapiens with 24 samples.

Results

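SNU-449 is an established line derived from human hepatocellular carcinoma (HCC), and galunisertib (LY2157299) blocks the kinase activity of the type I TGFβ receptor. The response to TGFβ that was left in SNU-449 cells under galunisertib was taken as the difference between 3 arrays of cells given TGFβ1 together with galunisertib and 3 arrays of cells given galunisertib only. These are 6 of the 24 one-colour Agilent arrays of the study, which profiled SNU-449 and a second HCC line, PLC/PRF/5, each in 4 groups: untreated, given recombinant TGFβ1 (1 ng/mL), given galunisertib (10 µM), and given the 2 agents together for 16 h. Each group held 3 independent culture experiments of 1 line, so that the p-values measure the spread between cultures of that line. Only spots in the inner area of the array were used (rows 41 to 344 and columns 11 to 154), because spots near the edge shift with the position of the array on its slide. The 3 galunisertib arrays lay in the first row of the 3 slides and the 3 arrays with both agents in the second row, and the same holds for control and TGFβ1 arrays, so slide row and TGFβ1 cannot be told apart.

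TGFβ binds a pair of receptor kinases at the cell surface, and the type I receptor then phosphorylates SMAD2 and SMAD3, which enter the nucleus with SMAD4 and switch target genes on or off. Among the targets are feedback genes that restrain the same pathway, such as PMEPA1 and SKIL, and genes of the extracellular matrix, of integrins and of epithelial-mesenchymal transition. In liver tumors TGFβ is known both for limiting growth and for favoring an invasive, mesenchymal state.

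By summed signal, the arrays matched the labelled line. Of 5 genes of a mesenchymal-like line that could be measured (AXL, CD44, CDH2, LOXL2 and SPARC), 5 were well above background on all 6 arrays, with a summed signal of 312 to 338 times the 75th percentile of the array under galunisertib and 308 to 330 with both agents. In PLC/PRF/5 cells under the same treatments the sum was 14.01 to 20.8. There 4 of the 5 genes were also well above background on all arrays, and CD44 on none. Of 10 hepatocyte genes, APOA2, APOB and FGA were on none of the 6 arrays well above background. The other 7 (AFP, AMBP, APOA1, FGB, RBP4, SERPINA1 and TTR) were well above background on all 6. The summed signal of the 10 was 18.0 to 22.7 under galunisertib and 20.2 to 22.6 with both agents, against 964 to 1121 in PLC/PRF/5. The 75th percentile of the raw signal was 201 to 227 on the galunisertib arrays and 206 to 231 on the arrays with both agents, no spot was saturated, and the 5 brightest spike-in controls differed between the groups by -0.14 to 0.11 on the log2 scale.

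All levels below are log2 of the signal over the 75th percentile of its array, and all changes are differences of such levels between group means. Among 12331 genes tested, 143 differed between TGFβ1 + galunisertib and galunisertib at a Benjamini-Hochberg adjusted p below 0.05 in limma, which is 1.16% of the genes. Of these, 78 were higher (0.633%) and 65 lower (0.527%) when TGFβ1 was present. The groups did not overlap in any of the 78 or the 65, nor in 18.1% of all genes tested. Since non-overlap was also a condition for naming the largest rises and falls, it is given below as a description. At the limits of the study, more than 2-fold with P under 0.001 before adjustment, 39 genes passed (0.316%), 29 higher and 10 lower. Leaving out 1 of the 12 SNU-449 arrays gave 17 to 98 lower calls. The calls numbered 42 (25 higher) without the second culture with both agents, 61 (36 higher) without the first, 81 to 88 without a TGFβ1 array and 93 without the third control. The falls numbered 28, 98 and 36 without the first, the second and the third galunisertib culture and 42 without the second control. The fold and P limits passed 65 and 64 genes without the first or second galunisertib culture and 66 without the third culture with both agents. Without scaling, 55 of 66 calls were higher. The median change over all genes tested was -0.03. These are measurements on whole cultures, in which a change in the number of cells that express a gene cannot be told apart from a change in RNA per cell. The calls draw on a spread estimated over the 12 SNU-449 arrays. When limma was fitted on the 6 arrays alone, 0 of 11843 genes passed the adjusted threshold (lowest adjusted p = 0.121), 1134 had an unadjusted p below 0.05, and 24 passed the fold and P limits, of which 23 were among the 39.

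The highest-ranking rises were led by feedback genes of the TGFβ pathway. PMEPA1 encodes a membrane protein that binds receptor-activated SMADs and dampens TGFβ signaling, and it is among the genes that TGFβ itself induces. Its levels were 3.00, 3.18 and 1.56 on the galunisertib arrays and 5.82, 5.41 and 4.88 on the arrays with both agents. The groups did not overlap, and the third galunisertib culture lay below the other two. PMEPA1 rose by 2.79 (SE 0.37, adjusted p = 0.0067 in limma, n = 3 against 3), or 6.90-fold. SKIL encodes the SnoN protein, a co-repressor that holds SMAD complexes silent and is degraded and then re-induced after TGFβ. SKIL rose by 2.08 (SE 0.29, adjusted p = 0.0089 in limma), from -4.13, -2.97 and -2.91 to -0.90, -1.22 and -1.65. The first galunisertib array was at the floor set for dim probes, and the lowest array with both agents still lay above the highest with galunisertib only.

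KLF7 encodes a zinc finger transcription factor of the Krüppel-like family. Its levels were -2.96, -2.93 and -2.73 under galunisertib and -0.90, -1.22 and -1.54 with both agents, a rise of 1.65 (SE 0.14, adjusted p = 0.0013 in limma). ITGB6 encodes the β6 integrin subunit, whose αvβ6 heterodimer releases TGFβ from its latent complex. ITGB6 stood at -3.63, -3.39 and -3.24 under galunisertib and at -1.18, -1.55 and -2.28 with both agents, and rose by 1.75 (SE 0.24, adjusted p = 0.0086 in limma). COL7A1 encodes the collagen of anchoring fibrils. COL7A1 rose by 1.64 (SE 0.25, adjusted p = 0.0118 in limma), from -0.42, 0.05 and 0.23 to 1.87, 1.81 and 1.11. The 3 galunisertib values of each of these genes lay below the 3 values with both agents, and the smallest value with both agents came from the third culture for all 5 genes. COL7A1 lost its call when the first or the second culture with both agents was left out (change 1.51 and 1.54), while the other 4 kept theirs without any single SNU-449 array. These 5 genes were selected with earlier results of these data in view, so that their passing the test is a description.

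**Figure D1:**
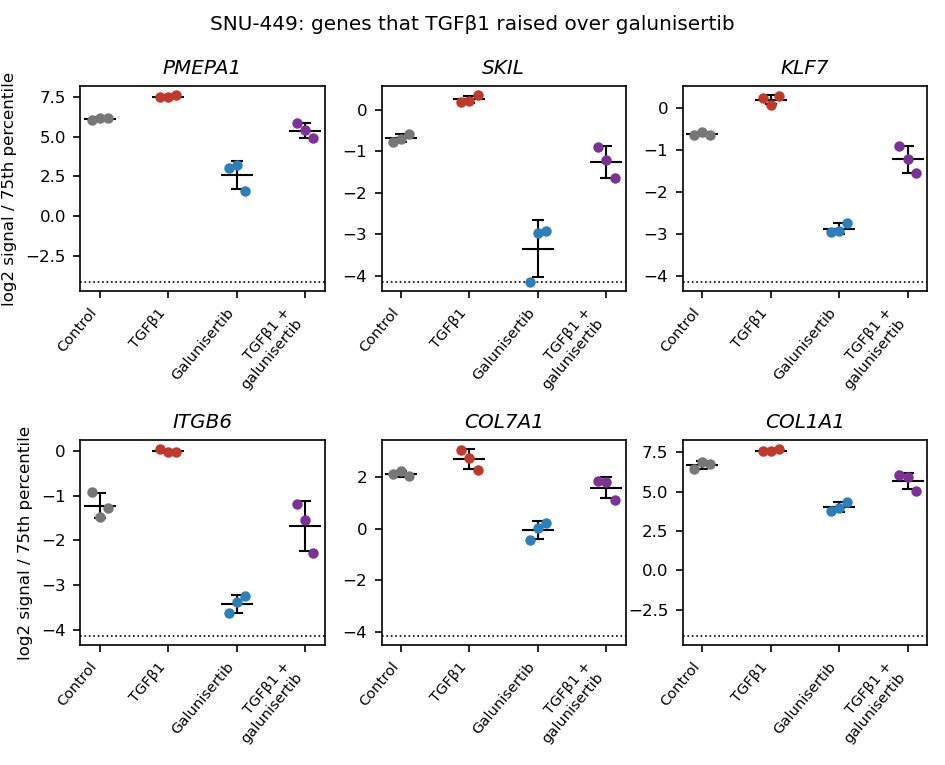
Levels of PMEPA1, SKIL, KLF7, ITGB6, COL7A1 and COL1A1 in the 12 SNU-449 arrays, as log2 of the signal over the 75th percentile of the array (vertical axis, own scale per panel), by group (horizontal axis). Points are arrays, bars the mean ± SD (n = 3), and the dotted line the floor at -4.13; in each panel the 3 arrays with both agents lie above the 3 with galunisertib only, and the galunisertib arrays lie below the control arrays.

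All 5 genes started from a lower level under galunisertib than in untreated cells. The control means were 6.12 for PMEPA1, -0.69 for SKIL, -0.62 for KLF7, -1.22 for ITGB6 and 2.13 for COL7A1. With both agents the means were 5.37, -1.25, -1.22, -1.67 and 1.60, in the same order, so that each remained under its control mean after TGFβ1 was added. The same held for the base of every called rise: the galunisertib mean was below the control mean for 78 of 78 genes, and for 60 of them the mean with both agents was also below control. A gene that is low under galunisertib is more likely to be called higher with both agents, because the same 3 arrays enter both statements, and these counts are given as a description.

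The start of these genes was looked up in RefSeq (GRCh38.p14) to show the sequence on which SMADs could act, since SMAD3 and SMAD4 recognize the 5 bases CAGAC. Windows of 250 bases before to 50 after the start were searched for CAGAC and its reverse complement GTCTG, and matches are in capitals. Where several starts are listed, the window with the most matches is shown, which is the case for PMEPA1 (4 listed starts, 3 with a match). SKIL and COL7A1 are shown as genes that rose under galunisertib, although neither was called with TGFβ1 alone (0.93 and 0.57), and JAG1, described below, as a gene that rose with TGFβ1 alone and was not called under galunisertib.
PMEPA1 promoter (chr20:57709966-57710265, minus strand): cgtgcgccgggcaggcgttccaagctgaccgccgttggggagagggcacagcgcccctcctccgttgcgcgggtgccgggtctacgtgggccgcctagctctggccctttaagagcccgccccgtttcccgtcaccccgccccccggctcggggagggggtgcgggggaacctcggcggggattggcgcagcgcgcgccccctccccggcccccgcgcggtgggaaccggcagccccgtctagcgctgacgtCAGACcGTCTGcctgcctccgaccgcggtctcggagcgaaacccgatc
SKIL promoter (chr3:170357465-170357764, plus strand): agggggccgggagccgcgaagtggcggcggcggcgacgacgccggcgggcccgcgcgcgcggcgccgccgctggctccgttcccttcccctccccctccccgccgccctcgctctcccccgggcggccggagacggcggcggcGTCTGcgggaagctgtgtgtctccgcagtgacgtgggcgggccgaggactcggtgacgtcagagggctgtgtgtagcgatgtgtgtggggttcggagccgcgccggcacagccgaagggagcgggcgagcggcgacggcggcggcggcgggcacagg
COL7A1 promoter (chr3:48595280-48595579, minus strand): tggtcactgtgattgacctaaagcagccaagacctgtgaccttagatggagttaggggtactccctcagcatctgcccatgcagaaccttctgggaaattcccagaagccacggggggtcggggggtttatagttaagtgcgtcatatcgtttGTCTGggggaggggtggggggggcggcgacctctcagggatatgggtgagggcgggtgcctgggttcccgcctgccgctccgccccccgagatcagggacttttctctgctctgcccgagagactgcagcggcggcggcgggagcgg
JAG1 promoter (chr20:10673950-10674249, minus strand): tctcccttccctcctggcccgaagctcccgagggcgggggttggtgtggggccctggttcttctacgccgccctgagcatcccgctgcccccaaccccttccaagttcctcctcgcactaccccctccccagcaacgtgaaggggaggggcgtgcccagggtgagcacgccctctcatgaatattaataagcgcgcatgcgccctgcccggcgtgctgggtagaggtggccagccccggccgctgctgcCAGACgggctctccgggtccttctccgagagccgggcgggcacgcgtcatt
The PMEPA1 window held 2 matches in inverse orientation separated by a single base, and the SKIL, COL7A1 and JAG1 windows held 1 match each. KLF7 had a match at 1 of 4 listed starts, and the single ITGB6 window had none. A match occurs in 45.3% of all 35116 promoter windows of this length in the table, so that its presence in these windows is a description of these letters and not of binding.

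COL1A1, the α1 chain of type I collagen, rose by 1.65 (SE 0.24, adjusted p = 0.0116 in limma) with values of 3.78, 3.93 and 4.37 under galunisertib and 6.06, 5.90 and 5.07 with both agents. FSTL3, a secreted follistatin-like protein that binds activins, rose by 1.41 (SE 0.20, adjusted p = 0.0100 in limma), from 2.58, 2.72 and 2.16 to 4.02, 4.12 and 3.54. In neither gene did the groups overlap, which was a condition for naming them. COL1A1 and FSTL3 lost their calls without the second culture with both agents, at changes of 1.54 and 1.29.

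The other rises by rule were of genes of the cell surface and of membrane traffic. EPHB2, a receptor tyrosine kinase for ephrin-B ligands, rose by 1.55 (SE 0.19, adjusted p = 0.0048 in limma), and its 3 probes gave 1.50 to 1.77. Its levels were 0.20, 0.86 and 0.70 under galunisertib and 2.26, 2.26 and 1.89 with both agents, well apart. NRP2, a co-receptor for semaphorins and VEGF, rose by 1.44 (SE 0.17, adjusted p = 0.0040 in limma), and its second probe gave 0.88. DNM3, a dynamin that acts in membrane fission, rose by 1.48 (SE 0.24, adjusted p = 0.0171 in limma). The DNM3 values were -2.05, -1.63 and -1.20 under galunisertib and 0.28, -0.14 and -0.58 with both agents, and its call was lost without the first or the second culture with both agents, at 1.27 and 1.48.

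Among the falls, SERPINF1 showed the largest change of those named by rule. SERPINF1 encodes PEDF, a secreted serpin known as an inhibitor of blood vessel growth, and it fell by 1.46 (SE 0.26, adjusted p = 0.0262 in limma), from 1.69, 1.26 and 1.80 under galunisertib to -0.21, 0.15 and 0.44 with both agents. The groups did not overlap, which was a condition for naming it. The call was lost when any of 6 single arrays of the fit was left out, at falls of 1.29 to 1.47. SPRY1, a Sprouty protein that restrains receptor tyrosine kinase signaling to MAPK, fell by 1.12 (SE 0.16, adjusted p = 0.0104 in limma), from 1.48, 1.42 and 1.19 to -0.06, 0.31 and 0.46, and kept its call without any single array. COXFA4L3, a small mitochondrial protein related to a cytochrome c oxidase subunit, fell by 1.23 (SE 0.14, adjusted p = 0.0037 in limma), and AKR1B10, an aldo-keto reductase, by 1.20 (SE 0.16, adjusted p = 0.0067 in limma). AKR1B10 was at -1.96, -2.36 and -2.27 under galunisertib and at -3.66, -3.42 and -3.10 with both agents, without overlap.

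CAVIN2, a coat protein of caveolae, fell by 1.00 (SE 0.09, adjusted p = 0.0013 in limma). Its levels of -2.92, -2.80 and -2.93 under galunisertib and -4.01, -3.93 and -3.70 with both agents were close to the floor, and no control or TGFβ1 array read it well above background. Other falls named by rule were those of LOC388242 (-0.92), GOLT1A (-0.84) and APLN (-0.80), and MRGPRF-AS1 fell by 1.00. The calls of GOLT1A and MRGPRF-AS1 were lost without any of 11 and of 8 single arrays of the 12. APLN encodes the peptide ligand apelin, and it was at -0.48, -0.27 and -0.30 under galunisertib and at -1.07, -1.20 and -1.16 with both agents. The mean under galunisertib was below the control mean for only 1 of the 65 called falls, and the mean with both agents was below control for 23, with the same 3 galunisertib arrays on both sides of the statement.

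**Figure D2:**
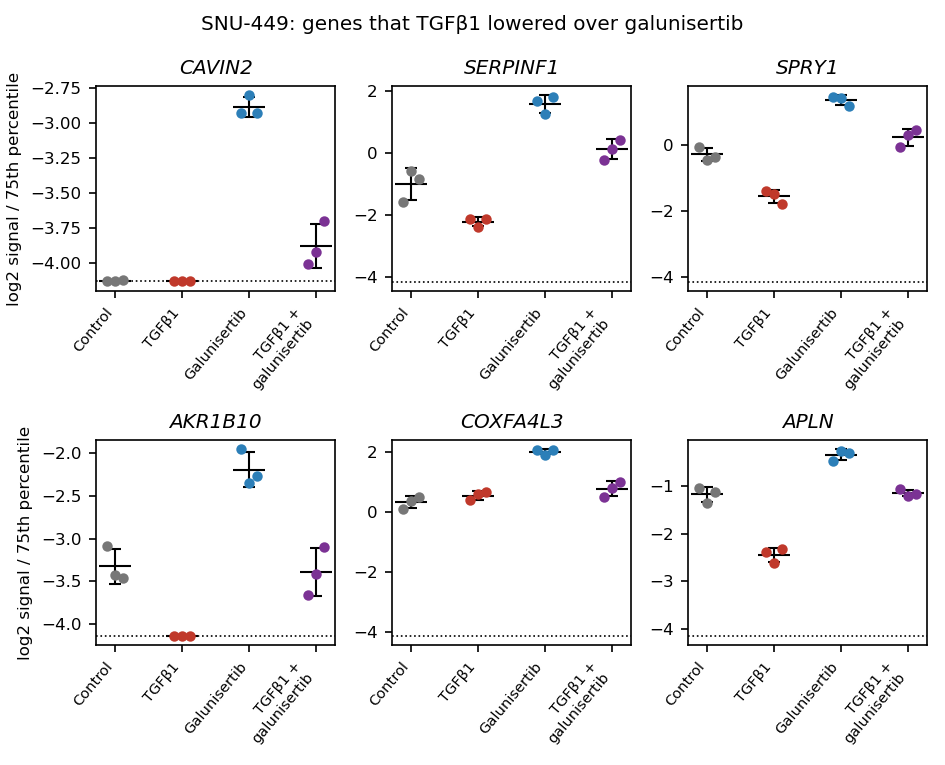
Levels of CAVIN2, SERPINF1, SPRY1, AKR1B10, COXFA4L3 and APLN in the 12 SNU-449 arrays, as log2 of the signal over the 75th percentile of the array (vertical axis, own scale per panel), by group (horizontal axis). Points are arrays, bars the mean ± SD (n = 3), and the dotted line the floor at -4.13; the 3 arrays with both agents lie below the 3 galunisertib arrays in each panel, and CAVIN2 lies at or near the floor on the control and TGFβ1 arrays.

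How much of the TGFβ response was left was asked with the control and TGFβ1 arrays, which are other arrays than the 6 above. TGFβ1 without the inhibitor changed 1372 genes (11.1% of those tested, 754 higher, 6.11%, and 618 lower, 5.01%) at an adjusted p below 0.05 in limma, a split that was 627 against 891 with the percentile taken over probes above background on all arrays and 716 against 231 without scaling, and 313 of them by more than 2-fold, 186 up and 127 down. The ratio of the log2 change under galunisertib to that without it had a median of 0.135 over the 186 rises (interquartile range 0 to 0.292) and 0.185 over the 127 falls (-0.0609 to 0.381). Taken slide by slide, the median for the rises was 0.186, 0.184 and 0.0134, and for the falls 0.226, 0.175 and 0.213. Same-numbered arrays with galunisertib did not pair, as given below. These slide values therefore show a spread and do not rank the cultures. The ratio exceeded 0.5 for 28 rises and 17 falls, and it was negative for 34 of each. A gene at the floor on all 6 arrays with galunisertib has a ratio of 0 by construction, as LDLRAD4 did among the rises. With only probes above background on all 12 SNU-449 arrays, the median ratio was 0.201 for the rises and 0.199 for the falls.

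Under galunisertib, 33 of the 313 genes (10.5%) were called again, beside 1.16% of all genes tested. These were 18 rises and 15 falls, each in its former direction. The difference between the responses was called for 180 of the 313 (57.5%), against 3.28% of all genes tested, and in all 180 the change under galunisertib was the smaller one; 9 genes were in both sets and 109 in neither. Since the 313 genes were selected for a large change without the inhibitor, part of such a shrinkage is built into the selection. Of the 143 genes called under galunisertib, 85 (59.4%) were also called with TGFβ1 alone, which is 6.20% of the 1372 genes. Of these 85, 41 were higher and 42 lower in both comparisons, and ANKRD20A12P and PNPLA7 had opposite signs.

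**Figure D3:**
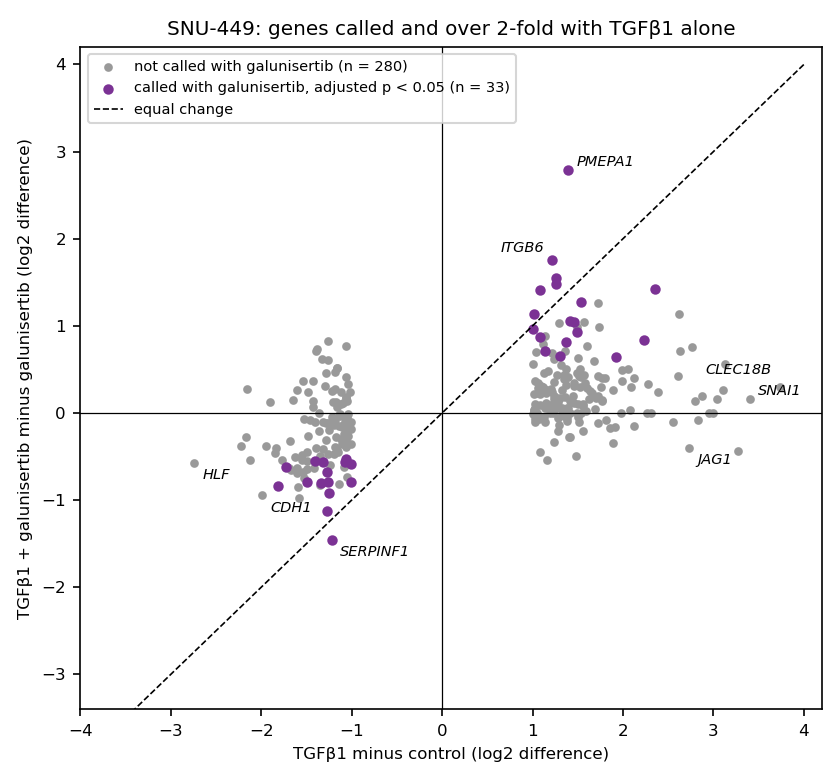
Change by TGFβ1 with galunisertib (vertical axis, log2 difference) against change by TGFβ1 without it (horizontal axis, log2 difference) for the 313 genes called and changed over 2-fold by TGFβ1 alone in SNU-449. Purple points are the 33 genes also called with galunisertib, gray points the other 280, and the dashed line marks equal change; most points lie between that line and 0, and PMEPA1, ITGB6 and SERPINF1 are among those beyond the line.

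The rises that were kept included genes of several roles. LTBP2, a matrix protein of the family named for binding latent TGFβ, rose by 1.49 with TGFβ1 alone and by 0.93 under galunisertib. Its levels under galunisertib went from 0.90, 1.02 and 0.99 to 2.02, 1.91 and 1.76. LOXL4, a lysyl oxidase-like enzyme that crosslinks collagen, rose by 1.01 and 0.97. GADD45B, a stress-response gene, rose by 1.08 and 0.87, and its levels of 3.59, 3.27 and 3.56 under galunisertib went to 4.47, 4.40 and 4.15 with both agents. In both genes the groups were apart. BMF, which encodes a BH3-only protein of the apoptosis pathway, rose by 1.41 and 1.06. TNFAIP6, a secreted hyaluronan-binding protein, rose by 1.46 and 1.04, LBH, a transcriptional cofactor, by 1.53 and 1.27, and FAP, a cell surface serine protease, by 1.92 and 0.64. Among the 18, only DNM3, EPHB2, FSTL3, ITGB6, LYPD1 and PMEPA1 had a ratio above 1, and in none of these 6 was the difference between the responses called (adjusted p of 0.195 to 0.78 in limma). For PMEPA1 the change was 1.39 with TGFβ1 alone and 2.79 under galunisertib, a difference of 1.40 (SE 0.52, adjusted p = 0.195 in limma). The corresponding differences of SKIL (1.15), KLF7 (0.84), ITGB6 (0.53) and COL7A1 (1.08) had adjusted p of 0.18, 0.0547, 0.438 and 0.145 in limma. A p that misses the threshold does not show that these responses were equal.

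The largest TGFβ1 rises were not called under galunisertib. SNAI1, a repressor of E-cadherin and a driver of epithelial-mesenchymal transition, was at -1.64, -1.86 and -1.81 in control cells and at 1.59, 1.65 and 1.66 with TGFβ1. Under galunisertib it was at -2.31, -1.99 and -2.34 without TGFβ1 and at -1.88, -2.08 and -2.20 with it, and these last groups overlapped. Its change fell from 3.40 to 0.16, a difference of -3.24 (SE 0.17, adjusted p = 6.35e-06 in limma). JAG1, a Notch ligand, was at -0.08, 0.59 and 0.47 in control cells, at 2.98, 3.08 and 3.11 with TGFβ1, at 0.59, 0.13 and 0.57 with galunisertib and at 0.34, 0.19 and -0.43 with both. The JAG1 change of 2.73 with TGFβ1 alone stood against -0.40 under galunisertib (SE 0.22, adjusted p = 0.445 in limma).

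LEFTY2, a secreted inhibitor of Nodal signaling, changed by 3.04 with TGFβ1 alone and by 0.16 under galunisertib. LDLRAD4, which like PMEPA1 binds SMADs and restrains TGFβ signaling, was at -0.33, -0.40 and -0.20 with TGFβ1 and on none of the 6 arrays with galunisertib well above background. RASGRP3, an exchange factor for RAS, was at -0.59, -0.71 and -0.42 with TGFβ1 and on none of the 3 arrays with both agents well above background. CLEC18B, a lectin with near-identical copies in the genome that the probe may not separate, changed by 3.73 and 0.30. ABLIM3 and GXYLT2 also had called differences (-2.91 and -2.66). LRRC32 encodes GARP, which docks latent TGFβ at the cell surface, and NOG and GDF6 encode a BMP antagonist and a BMP-family ligand. Of the 3 galunisertib arrays, 0 read LRRC32 or NOG well above background and 1 read GDF6, so that their change under galunisertib has only a bound and no size is given for the difference here. NKAIN4 kept 1.14 of a rise of 2.61, with an adjusted p of 0.1 in limma for the 1.14 and of 0.0774 for the difference, and passed neither test.

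**Figure D4:**
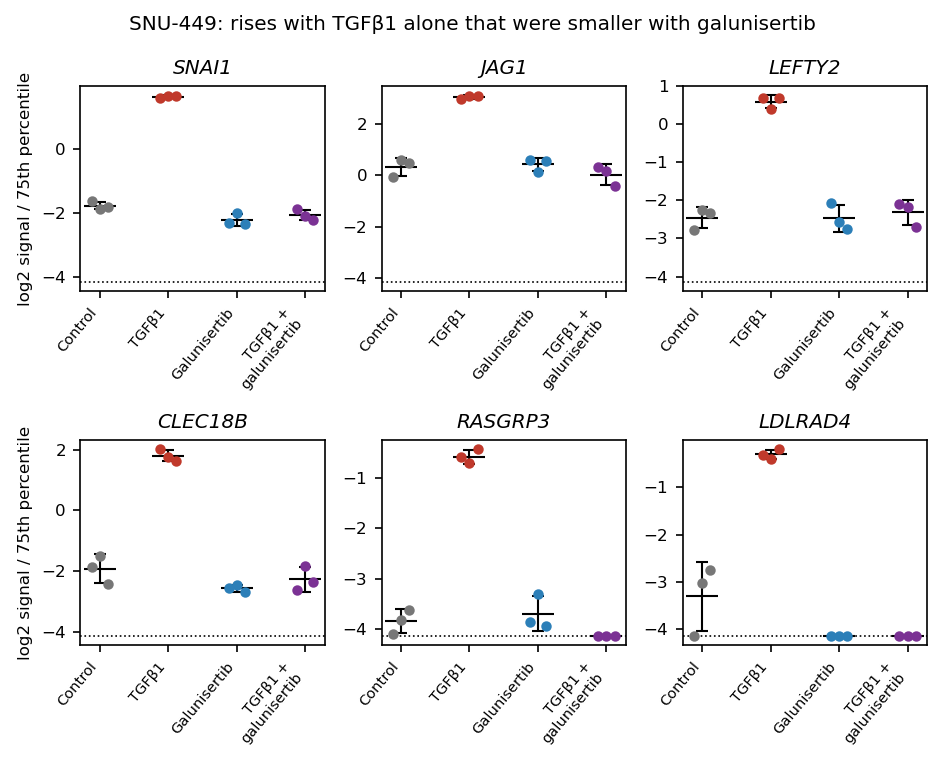
Levels of SNAI1, JAG1, LEFTY2, CLEC18B, RASGRP3 and LDLRAD4 in the 12 SNU-449 arrays, as log2 of the signal over the 75th percentile of the array (vertical axis, own scale per panel), by group (horizontal axis). Points are arrays, bars the mean ± SD (n = 3), and the dotted line the floor at -4.13; the 3 TGFβ1 arrays stand above all others, and LDLRAD4 lies at the floor on all 6 arrays with galunisertib.

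Among the falls with TGFβ1 alone, HLF, a hepatic PAR bZIP transcription factor, was at -0.51, -0.25 and -0.07 in control cells and at -3.09, -3.14 and -2.84 with TGFβ1. With galunisertib HLF was at 1.03, 0.51 and 1.28, and with both agents at 0.37, 0.28 and 0.46. These groups did not overlap, and the change of -0.57 did not pass (adjusted p = 0.206 in limma), while the difference of 2.17 from the change of -2.74 did (adjusted p = 0.0013 in limma). CDH1, the E-cadherin gene, was at 0.48, -0.16 and 0.68 under galunisertib and at -0.68, -0.61 and -0.56 with both agents, without overlap. Its change of -0.95 (SE 0.24) had an adjusted p of 0.117 in limma, while with TGFβ1 alone CDH1 fell by 2.00 (adjusted p = 0.0004 in limma), and the difference of 1.05 did not pass (adjusted p = 0.147 in limma). Groups that do not overlap were found for 2234 genes, or 18.1% of those tested. SLC16A5, ITGA10 and IGFN1, which encode a monocarboxylate transporter family member, an integrin α subunit and a muscle protein, also had smaller falls under galunisertib, with called differences of 1.85, 1.57 and 1.89, of which that of IGFN1 was lost without any of 10 single arrays and that of ITGA10 without the second or the third TGFβ1 array or the first with both agents.

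Genes were also grouped by role, with lists written by hand. Of 15 measured SMAD target and feedback genes, 11 rose with TGFβ1 alone and 3 under galunisertib (PMEPA1, SKIL and LTBP2), beside 6.11% and 0.633% of all genes, and SKIL was not among the 11 (0.93, adjusted p = 0.0672 in limma). Their median change was 0.96 with TGFβ1 alone and 0.28 under galunisertib, where the medians over all genes were 0.02 and -0.03. TGFBI, a secreted matrix protein named for its induction by TGFβ, changed by 1.58 and 0.34, SPSB1 by 1.77 and 0.40, and BAMBI, a pseudoreceptor that blocks the pathway, by 0.97 and -0.08. LTBP3 and FSTL3 rose among 13 TGFβ ligands, receptors and latency proteins (median 0.63 with TGFβ1 alone, 0.09 under galunisertib), of which the receptor TGFBR1 changed by 0.63 and 0.33. Of 3 measured SMADs none was called in either comparison, and SMAD4 changed by -0.03 under galunisertib.

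Among 19 genes of the matrix and of protease inhibitors, 4 rose under galunisertib, COL1A1, COL7A1 and LOXL4 among them, and none fell, yet the median of the list was 0.00 (0.47 with TGFβ1 alone, where 8 rose). Of all genes tested, 0.633% were called higher under galunisertib and 6.11% with TGFβ1 alone. CCN2, a matricellular growth factor, changed by 1.53 with TGFβ1 alone and by 0.51 under galunisertib (adjusted p = 0.0919 in limma), and COL4A1, of the basement membrane, by 1.45 and 0.12. ITGB6 and ITGB5 (0.48, adjusted p = 0.0452 in limma) rose among 9 integrin subunits. The ITGB5 call was lost with the replicate block and without any of 11 single arrays, the exception being the first galunisertib array. ITGA1 and ITGAV changed by 0.04 and 0.03 after 1.34 and 0.85 with TGFβ1 alone. Of 15 transcription factors of the TGFβ response, 9 rose with TGFβ1 alone and only KLF7 rose under galunisertib. Beside SNAI1, the changes of HEY1 (1.77 and 0.13), SOX4 (1.39 and 0.41) and SNAI2 (1.06 and 0.34) were not called under galunisertib.

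Of 12 cytokines and growth factors, EDN1 (endothelin 1, 0.96), PDGFB (0.59) and LIF (0.53) rose under galunisertib, beside 0.633% of all genes. EDN1 lost its call without the first or the second array with both agents. With all spots of the array, where another, brighter probe can stand for a gene, the EDN1 change was 0.10 (adjusted p = 0.948 in limma). PDGFB lost its call without any of 10 single arrays and LIF without any of 8, and both lost it with the replicate block. INHBA, the activin A subunit, changed by 2.12 with TGFβ1 alone and 0.40 under galunisertib. With TGFβ1 alone 6 of the list rose, beside 6.11% of all genes. A called difference was found for 3 of the list, each lower under galunisertib, beside 3.28% of all genes. The median of the list was 0.36 with TGFβ1 alone and 0.38 under galunisertib. Among 13 growth arrest and cell cycle genes GADD45B alone rose, and MYC and CCND1 changed by 0.10 and 0.00. Of 3 ID genes none was called under galunisertib, and ID1 changed by 1.72 with TGFβ1 alone and by 0.19 under galunisertib. Only ID1 of the 3 was called with TGFβ1 alone, where their median was -0.44, so that the other members did not rise.

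Of 10 epithelial and 8 contractile genes 0 were called under galunisertib, and with 1.16% of all genes called a list of that size would hold few or no calls. Of the 10 epithelial genes 5 fell and 2 rose with TGFβ1 alone, beside 5.01% and 6.11% of all genes. The median of the 10 was -0.45 without and -0.19 with the inhibitor. Of the 8 contractile and mesenchymal genes 3 rose with TGFβ1 alone, with medians of 0.53 and 0.27. ACTA2, the smooth muscle actin gene, changed by -0.52 under galunisertib with an adjusted p of 0.0508 in limma.

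In other pathways, 2 of 13 NF-κB targets and 2 of 17 MAPK and immediate-early genes were called under galunisertib, beside 1.16% of all genes. Of the NF-κB targets, IER3, an early response gene, rose by 1.04 (adjusted p = 0.0040 in limma), and CCL2, a monocyte chemokine, fell by 0.77 (adjusted p = 0.0086 in limma). CCL2 was at 2.97, 2.80 and 3.04 under galunisertib and at 2.09, 2.16 and 2.27 with both agents, without overlap. Of the MAPK and immediate-early genes none rose, and SPRY1 and DUSP5, a phosphatase that inactivates ERK, fell by 1.12 and 0.68, of which the DUSP5 call was lost without any of 9 single arrays. DUSP4 had the widest change of this list, -3.02, which did not pass (adjusted p = 0.273 in limma). Its values with both agents were 1.63, -4.13 and 0.82 against 2.45, 2.44 and 2.49 under galunisertib, so that 1 array at the floor set the mean. Of 8 AKT and FOXO targets none was called under galunisertib. Of 5 measured hepatocyte transcription factors only CEBPB was called, with a fall of 0.50 (adjusted p = 0.0205 in limma), and FOXA2 changed by -0.53 (adjusted p = 0.0515 in limma). RBP4, a hepatocyte secretory protein, was the only one called of 7 tested hepatocyte genes, with a fall of 0.70, and the calls of CEBPB and RBP4 were lost without the first or the third galunisertib array or the first or the second with both agents, while the summed signal of that list overlapped between the groups as given above.

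**Figure D5:**
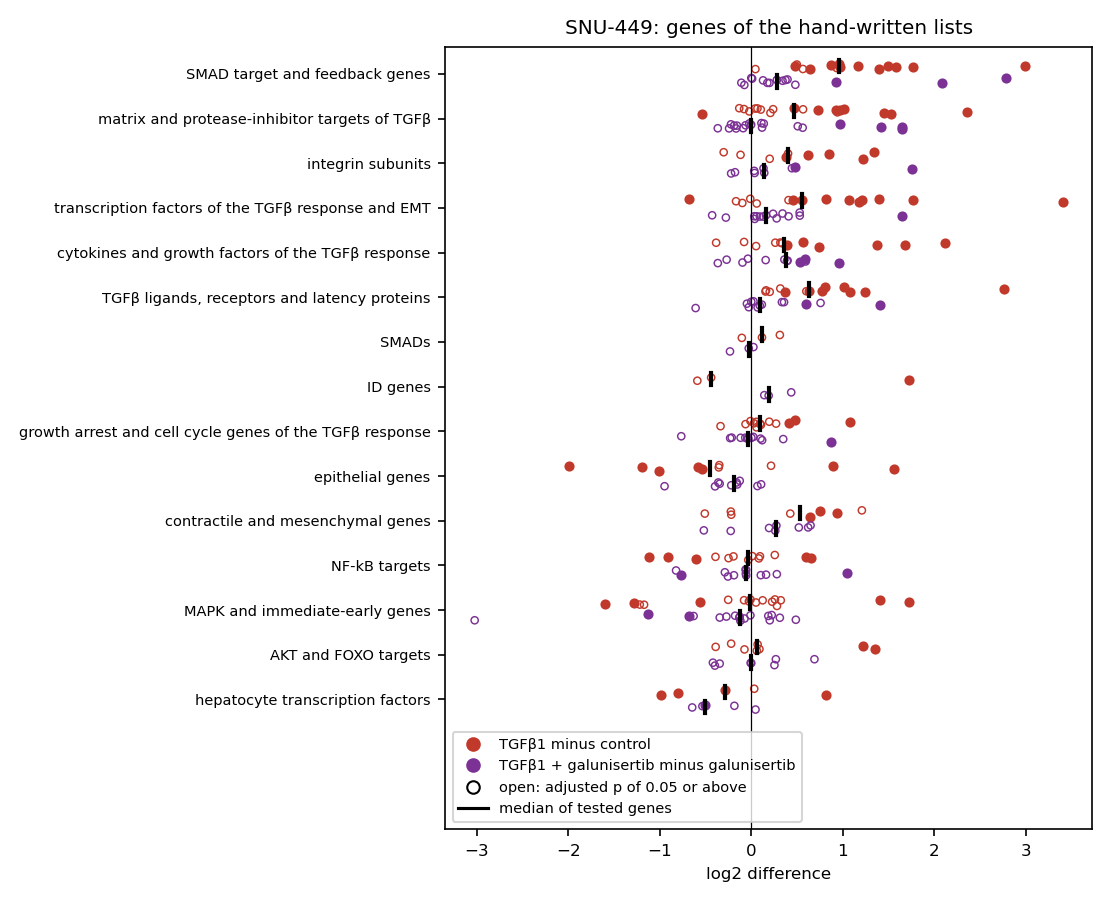
Changes of the tested genes of each hand-written list in SNU-449 (horizontal axis, log2 difference), with TGFβ1 minus control in red and TGFβ1 + galunisertib minus galunisertib in purple. Each point is a gene, filled where its adjusted p was below 0.05 and open otherwise, and vertical bars are medians. Purple medians lie nearer to 0 than red ones in most lists. They lie farther from 0 for cytokines, NF-κB targets, MAPK genes and hepatocyte transcription factors. PMEPA1, SKIL, KLF7, ITGB6, COL1A1 and COL7A1 are the purple points above 1.5, and DUSP4 lies at -3.02.

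In PLC/PRF/5 cells the same pair of groups gave 695 called genes of 12792 (5.43%), 287 higher (2.24%) and 408 lower (3.19%), of which few were large: 5 (0.0391%) passed the fold and P limits, against 39 in SNU-449. The PLC/PRF/5 count fell to 9 without the first culture with both agents and to 24 without the first galunisertib culture. Of the 143 SNU-449 genes, 114 were tested there. CAMK2N1, PSME3, SLC25A42, SPRY1 and VSIR were called in the same direction, and COL7A1, DAND5, MRTFA-AS1 and PNPLA7 in the opposite one. The 5 leading genes of SNU-449 changed in PLC/PRF/5 by 0.21 (SKIL), 0.15 (KLF7), -0.13 (ITGB6) and -0.85 (COL7A1), and none of those 6 PLC/PRF/5 arrays read PMEPA1 well above background. Fitted over all 24 arrays, the difference between the lines was 2.49 (SE 0.31) for COL7A1, 1.88 (SE 0.27) for ITGB6, 1.88 (SE 0.32) for SKIL and 1.50 (SE 0.24) for KLF7, with adjusted p of 0.0002 to 0.0037 in limma, where 3.44% of genes were called. ITGB6 was well above background on only 1 of the 6 PLC/PRF/5 arrays, so its value there rests largely on the floor. The PMEPA1 difference of 2.79 (adjusted p = 0.0009 in limma) likewise sets a measured rise against a gene at the floor. These genes were selected with earlier results of these data in view. The same SNU-449 arrays enter the difference between the lines, so the passing of these genes is a description.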

How the data were processed

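RNA of 2 HCC lines was hybridized to one-colour Agilent SurePrint G3 arrays, 3 per group, 24 in all. The deposited scanner files were made by the authors with Agilent Feature Extraction (version 10.7.3.1, per the submitters' processing notes) and hold the processed signal, a linear intensity from which background was subtracted and spatial trends removed, before any scaling across arrays. A deposited matrix holds GeneSpring log2 values centred on each probe's median; over 14041 probes its differences between arrays correlated at 0.998 with those computed here, with a slope of 1.00, and it served as an alternative only. Arrays give intensities and no read depth, and the number of arrays limits the precision.

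After control and outlier-flagged spots had been dropped, spots of a probe were averaged and scaled by their array's 75th percentile over inner spots. A floor of 5.70% of that percentile (log2 of -4.13) was applied, taken from the weakest well-above-background signal of each array as a median. A probe entered the tests when all arrays of at least 1 of the 4 SNU-449 groups read it well above background, and each gene was represented by its brightest probe. Accessions were looked up in RefSeq (GCF_000001405.40), otherwise LNCipedia names were kept; of 40588 inner probes 21668 had a RefSeq name, 7459 a LNCipedia name and 11461 none. Of the 55 genes named by rule, 35 had a promoter window in the RefSeq table. For the contrasts, limma 3.58.1 (R 4.3.3) was run over the 12 arrays of a line, with Benjamini-Hochberg adjustment over all genes; the difference between the lines used 24 arrays. The methods of the study name a two-sample test with a random variance model, and limma, which also shares the spread between genes, was used in its place. The steps were tested on simulated data.

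Genes were named by rule: the 5 leading genes, the 10 largest rises and falls under galunisertib, the 10 largest rises and 5 largest falls with TGFβ1 alone, the 5 largest differences of the responses each way, and called list members, all from called genes, and the rises and falls also well above background on their 6 arrays, RefSeq-named and not overlapping. Genes of the lists that were not called, kept genes outside this rule and genes shared with PLC/PRF/5 were chosen after their values were seen, and a few genes of the rule are not reported here. The members, lists and rules were all chosen with earlier results of these data known. Replicate number is also the slide. Deviations of same-numbered arrays correlated at 0.11, 0.23 and -0.05 between both agents and galunisertib, which did not pair them, and at 0.20, 0.27 and 0.18 between TGFβ1 and control, which did; the block gave 1282 calls there, against 1372 without it. Alternatives were the spots used, background correction, scaling, filter, floor, probe choice, arrays in the fit, test, replicate block and leaving out each array; background correction used median signals, since mean signals were not used here.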

Additional observations from a re-analysis of the deposited data

Results flagged for a closer look

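Responses to TGFβ1 in SNU-449 that differed with and without galunisertib were tested as the difference of the 2 changes in limma (adjusted p below 0.05). Among the genes named by rule, the response was lower under galunisertib for RASGRP3 (-3.71), CLEC18B (-3.43), SNAI1 (-3.24), JAG1 (-3.13), LDLRAD4 (-3.00), ABLIM3 (-2.91), LEFTY2 (-2.88), GXYLT2 (-2.66), GDF6 (-2.19), LRRC32 (-2.01), NOG (-1.92), COXFA4L3 (-1.45), MRGPRF-AS1 (-1.39) and CAVIN2 (-0.99). COXFA4L3 and MRGPRF-AS1, which fell with both agents, changed by 0.22 and 0.38 with TGFβ1 alone. CAVIN2 was on no control or TGFβ1 array well above background, so that a fall there could not be seen and its difference is set by the floor. The values of RASGRP3, LDLRAD4, LRRC32, NOG, GDF6 and SLC14A1 also rest on arrays not well above background and are not sizes. The calls of LRRC32 and NOG were lost without any of 6 and of 8 single arrays. It was higher under galunisertib for HLF (2.17), KCNJ13 (2.17), SLC14A1 (2.09), LINC00173 (2.03), CEACAM1 (1.90), IGFN1 (1.89), SLC16A5 (1.85), ITGA10 (1.57) and GOLT1A (0.97). Of these calls, that of IGFN1 was lost under 19 of 28 alternatives, that of LINC00173 under 13 and that of CEACAM1 under 12, while that of KCNJ13 was lost without any of 9 single arrays. LINC00173 has 3 probes, of which the one used and another changed by -1.90 and -1.92 with TGFβ1 alone and the remaining one by 0.01. With limma over 24 arrays that remaining probe stood for the gene, and the difference was 0.05. KCNJ13, a potassium channel gene, changed by -0.81 with TGFβ1 alone and by 1.36 under galunisertib, neither of them called, and 1 of its 3 galunisertib arrays was not well above background.

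The response under galunisertib differed between SNU-449 and PLC/PRF/5, also as a tested difference, for PMEPA1 (2.79), COL7A1 (2.49), ITGB6 (1.88), SKIL (1.88) and KLF7 (1.50). These genes were selected with earlier results of these data in view, and the same SNU-449 arrays enter the difference, so it is a description. In PLC/PRF/5 under galunisertib, PMEPA1 was well above background on no array and ITGB6 on only 1, so their differences rest on the floor. With 3 arrays per group no array was tested for standing apart, though each was left out in turn. The galunisertib arrays correlated with one another at 0.984 to 0.986 and with the arrays given both agents at 0.983 to 0.990. The arrays given both agents correlated with one another at 0.989 to 0.992.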

How the results depend on the processing

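The count of 143 genes called for TGFβ1 added to galunisertib moved to 306 with all spots of the array, 30 with scaling to the array median, 66 without scaling (55 of them higher), 70 without the filter on dim probes, 233 with the floor doubled (95 higher) and 461 with limma over 24 arrays. It was 0 both with limma over the 6 arrays and with an ordinary t-test, where 24 and 3 genes passed the fold and P limits. With the replicate number as a block it was 89. The t-test shared no spread between genes, so it is not the random variance model named in the methods of the study. Leaving out 1 array gave 42 (second culture with both agents) to 205, with 61 without the first culture with both agents, 81 to 88 without a TGFβ1 array and 93 without the third control. Scaling to the median shifted the median of all genes to -0.16 under galunisertib, 0.13 with TGFβ1 alone and -0.29 for the difference.

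Calls for TGFβ1 alone went to 574 with median scaling and to 850 to 1535 without 1 array. The 405 called differences went to 166 with median scaling (31 higher), 197 without scaling, 268 without the filter, 956 over 24 arrays and 177 to 485 without 1 array. The median ratio of the falls went to 0.262 with all spots or the t-test, 0.287 with normexp, 0.286 with median scaling, 0.212 with quantile normalization, 0.255 without the filter, 0.238 with the floor doubled, 0.132 over 24 arrays and 0.114 to 0.276 without 1 array; that of the rises ran from 0.0726 with median scaling to 0.201 with probes above background on all 12 arrays, and from 0.0949 to 0.173 without 1 array. The 695 PLC/PRF/5 calls went to 1403 with all spots, 1060 with probes above background on all 12 arrays, 365 with the block and 9 to 977 without 1 array.

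Over 55 named genes and 1590 alternative values, 296 lost the call and none changed direction. The causes were not tested. Signals near background limit what can be said of SKIL, CAVIN2, KCNJ13, RASGRP3, LDLRAD4, LRRC32, NOG, GDF6, SLC14A1 and, with TGFβ1 alone, AKR1B10, and SMAD7, SMAD3, IL11 and FN1 lay in outer spots and were not analysed here.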
